A study of Saccharomyces cerevisiae with 4 samples.

Results

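The genes described here are the 32 listed genes of the budding yeast proteasome, 14 for subunits of the 20S core and 18 for subunits of the 19S cap, among 6002 annotated nuclear ORFs. They were listed by name and role, at a time when earlier results of these data were known. Molecules on either strand that overlapped these genes or the 500 bases on each side made up 7504 of the 425462 distinct isoforms in the data and 24352 of the 1833796 reads (1.33%). RPN9, which encodes a further lid subunit, was not among the 32 and is described with the other proteasome genes.

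The cells were Saccharomyces cerevisiae strain FSY3636, mating type a (MATa), of the S288c background. Every library came from this strain, in which RRP6, the gene for a nuclease subunit that the exosome carries in the nucleus, was replaced by kanMX4. Cells grew to mid-log phase in rich glucose medium (YPAD), and no wild-type library enters the description, so each value is a level within the mutant. TIF-Seq pairs the cap site of an RNA with its poly(A) site by sequencing both from one full-length cDNA, and an isoform here is a distinct pair of start and end. There were 4 libraries (2 cultures, each prepared 2 times), and their counts were pooled in 1 deposited column. No value therefore has an SD or a test, and 95% intervals cover counting error only. With 1 pooled level per gene, fewer cells expressing a gene and less RNA per cell cannot be told apart.

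The proteasome degrades proteins marked with ubiquitin. Its core is a barrel of alpha and beta rings, with the proteolytic sites on beta subunits inside the barrel. The cap consists of a base, whose ATPase ring unfolds substrates and threads them into the core, and a lid that removes ubiquitin. In budding yeast many of the genes share a promoter element, the proteasome-associated control element, which is bound by the transcription activator Rpn4. Rpn4 is itself degraded quickly by the proteasome, which closes a feedback loop on proteasome supply.

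The 9-base element GGTGGCAAA, called the Rpn4 box below, was searched on both strands of the 500 bases before each start codon. It was present before 26 of the 32 genes, each time exactly once, against 99 of all 6002 ORFs (1.65%). The box lay on the strand of the gene in 18 members and on the opposite strand in 8. Examples from each role are shown on the strand of the gene, 5′ to 3′, with 10 bases of R64 sequence on each side. Capitals mark the box, which reads TTTGCCACC where it lies on the opposite strand.

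SCL1 (chrVII:475337-475365, minus): cacacaccaaTTTGCCACCgtaaggatag
PRE8 (chrXIII:86841-86869, minus): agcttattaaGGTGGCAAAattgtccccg
PRE6 (chrXV:255218-255246, plus): cgaagattctTTTGCCACCggaagggaaa
PRE3 (chrX:435035-435063, plus): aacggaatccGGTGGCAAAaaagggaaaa
PRE4 (chrVI:249959-249987, minus): tggtttagaaTTTGCCACCttaaatacgt
RPT1 (chrXI:174048-174076, plus): attaccgaatTTTGCCACCcgaaaactaa
RPT2 (chrIV:437906-437934, plus): gtttttctccGGTGGCAAAtgtctctttt
RPN1 (chrVIII:164838-164866, minus): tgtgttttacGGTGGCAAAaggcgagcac
RPN2 (chrIX:220801-220829, minus): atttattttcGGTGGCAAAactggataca
RPN6 (chrIV:286790-286818, minus): tggttccaagGGTGGCAAAtgttggtaga
RPN7 (chrXVI:742290-742318, plus): ataagttaagTTTGCCACCcattgaggat

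Read on the strand of the box, the next base was A in 17 of the 26 members, T in 8, C in 1 and G in 0. The base before the box varied more, with C in 12, G in 7, A in 6 and T in 1. Flanking bases were not counted for other ORFs with the box or for upstream regions at large. These counts therefore do not show a longer motif.

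The 6 members without the exact box were PRE5, PUP1, RPN8, RPN10, RPN13 and SEM1. Allowing any base at the first position, NGTGGCAAA was found before 29 members and before 227 of all ORFs (3.78%). The 3 added genes, PRE5, PUP1 and RPN8, all carried AGTGGCAAA on the strand of the gene. Allowing any base also at the last position, NGTGGCAAN, brought in RPN10 and SEM1 for 31 members, but that motif was found before 455 ORFs (7.58%). RPN13 had none of these forms. The near matches are shown in the same way, with the matched 9 bases in capitals.

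PRE5 (chrXIII:901552-901580, plus): cctattatagAGTGGCAAAattaaaaatt
PUP1 (chrXV:631891-631919, minus): aacccggccgAGTGGCAAAataccaaaaa
RPN8 (chrXV:817085-817113, minus): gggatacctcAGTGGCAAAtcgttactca
RPN10 (chrVIII:498887-498915, plus): tgctgatgttGTTGCCACTtcttgtttac
SEM1 (chrIV:1202076-1202104, plus): aagtgaatagAGTGGCAATaaaagtcgaa

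In the box genes, nearly all molecules that span the ORF began past the box. Of 8820 covering reads, meaning reads on molecules that span a member's whole ORF, 8773 (99.5%) began between the box and the start codon. A further 47 began upstream of the box, and 0 began within it. The lowest share past the box was 96.1%, in RPN12, and PUP3 had the most reads upstream of it, 17 of 765. The box ended 76 to 175 bases before the start codon in the 26 members. Median leaders over all ORFs with at least 20 covering reads had an upper quartile of 65 bases, against 66 in members. A like share was not computed for other ORFs, so the 99.5% describes the members only.

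The distance from the box to the most used start was narrow among the proteasome genes. Over the 24 box genes with at least 20 covering reads it ran from 44 bases in PRE7 to 115 in RPT3, with a median of 70 (quartiles 54.5 and 82). Another 73 ORFs carry the box, 31 of them with at least 20 covering reads, and there it ran from 7 to 442 bases with a median of 132 (quartiles 96.5 and 348.5). Some of those ORFs face a member across a shared upstream region and so share its box. Without them, 24 ORFs remained with a median of 132.5 bases (quartiles 82.75 and 330.25). This is a description with no test, since the box is known from these very genes. The distance was similar in both orientations, with a median of 76 bases in the 16 genes with the box on their own strand and 66.5 in the 8 with it on the other. The box end itself lay 76 to 175 bases before the start codon in members (median 114) and 28 to 490 bases in the other 73 ORFs (median 226).

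The stretches from 10 bases before the box to the base before the most used start are shown for 3 genes in which nearly all starts lie at or after the most used one, with the box in capitals.

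RPN6, 47 bases from box to start (chrIV:286754-286818, minus): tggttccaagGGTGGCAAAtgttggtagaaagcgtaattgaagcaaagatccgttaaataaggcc
RPN11, 67 bases (chrVI:153259-153343, plus): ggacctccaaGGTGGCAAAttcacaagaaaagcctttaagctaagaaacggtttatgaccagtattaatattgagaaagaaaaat
RPT1, 77 bases (chrXI:174048-174142, plus): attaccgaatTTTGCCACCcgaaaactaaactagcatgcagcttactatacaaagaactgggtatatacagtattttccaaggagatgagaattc

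In RPT3, the gene with the longest distance, the most used start held 35 of 204 reads, and 26, 25, 22 and 19 reads began further upstream, at 88, 93, 104 and 122 bases before the start codon. The long distance there thus rests on a start that held 17.2% of its reads. RPT1 had 2 equally used starts of 9 reads each, at 70 and 36 bases before the start codon, and the upstream one was used.

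**Figure D1:**
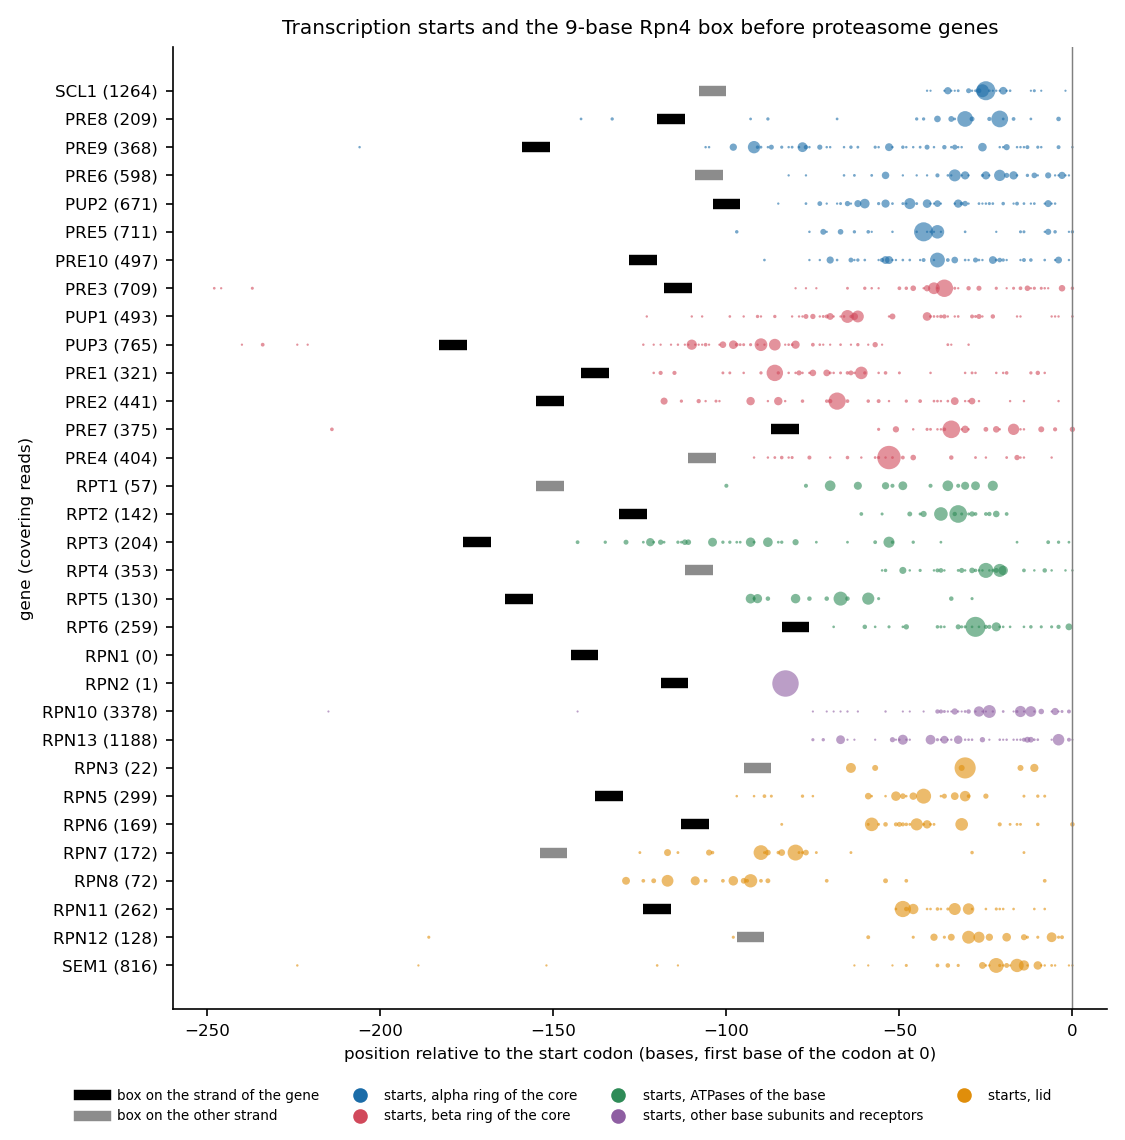
Transcription starts of the 32 genes (circles, area growing with the share of the gene's covering reads) and the 9-base Rpn4 box (bars, black on the gene's strand and grey on the other), by position relative to the start codon in bases. Starts gather between the box and the start codon in every box gene with at least 20 covering reads, and the 6 genes without a bar lack the exact box.

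**Figure D2:**
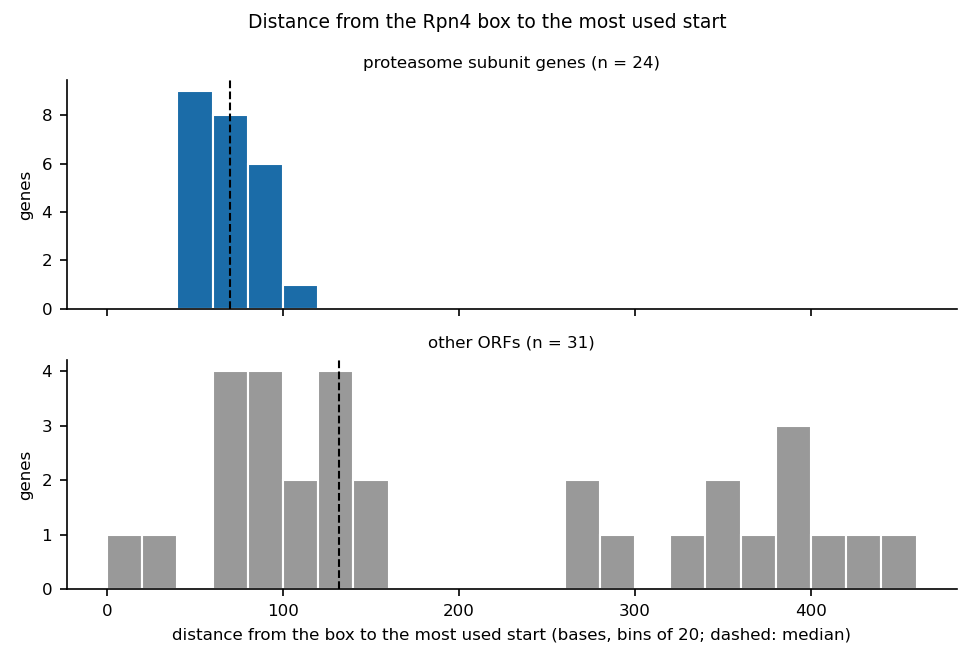
Distance in bases from the end of the Rpn4 box to the most used start, in bins of 20 bases, for 24 proteasome genes (upper) and 31 other ORFs (lower) with at least 20 covering reads, with dashed lines at the medians of 70 and 132 bases. The proteasome genes fill the range from 44 to 115 bases, whereas the other ORFs extend to 442 bases.

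The letters TATAAA or TATATA, searched on the gene's strand in the 150 bases before the most used start, were found in 5 of the 30 members with at least 20 covering reads, against 35.3% of all 2388 such ORFs. They were PRE6, PRE5, RPT1, RPN13 and RPN6. Of these 5, PRE5 and RPN13 lack the exact box. The first base of the most used start was A or G in all 30, against 98% of such ORFs.

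Together, the 32 genes gave 15478 covering reads, 8440 CPM (reads scaled to the total of all reads, 95% Poisson interval 8308 to 8574) or 0.844% of all reads. At least 20 covering reads were seen for 30 of the 32 genes, against 39.8% of all ORFs. A read here counts a whole molecule, so no division by length applies, but over all ORFs the class medians of covering reads fell with coding length above 1000 bases, and levels are set against ORFs of like coding length. All 30 genes of up to 2000 coding bases lay above the median of their length class. That held for 2 of 2 genes up to 500 bases (class median 34 reads), 17 of 17 in the next class, up to 1000 bases (48 reads), 10 of 10 up to 1500 bases (16 reads) and 1 of 1 up to 2000 bases (5 reads). The exceptions were RPN1 and RPN2, the largest genes, at 0 and 1 read in a class whose median was 1. Across the 32 genes, coding length and covering reads had a Spearman correlation of −0.78, a description over genes that share the same libraries.

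**Figure D3:**
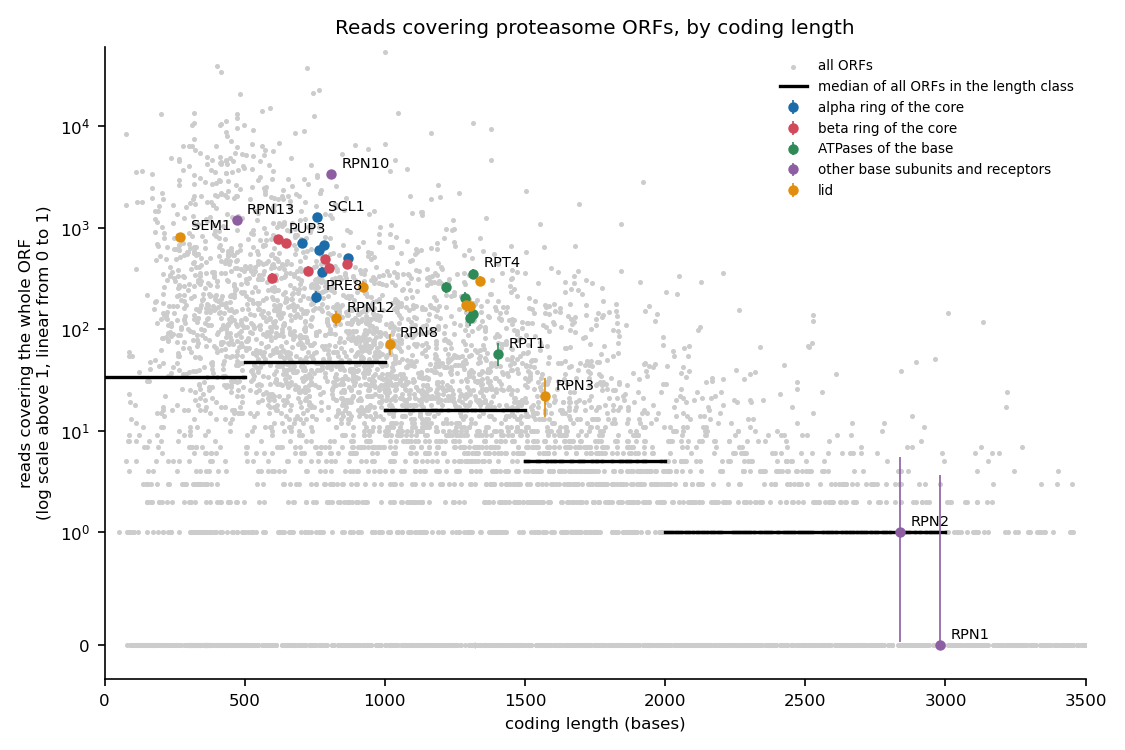
Reads covering the whole ORF (vertical, log scale above 1 and linear from 0 to 1) against coding length in bases, for the 32 proteasome genes by role (colours, bars: 95% Poisson intervals) and all ORFs (grey), with black lines at the median of each length class. All 30 proteasome genes up to 2000 bases lie above their class median, from RPN3 at 22 reads to RPN10 at 3378.

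The alpha ring, whose subunits gate the entry to the barrel, gave 4318 covering reads over 7 genes of similar length (705 to 867 coding bases). SCL1 (YGL011C, chromosome VII, 474489 to 475247, minus strand) led with 1264 reads, 689 CPM (652 to 728). PRE5 had 711, PUP2 671, PRE6 598, PRE10 497 and PRE9 368 reads. PRE9 encodes the only core subunit whose gene is not essential in yeast. PRE8 was lowest with 209 reads, 114 CPM (99.0 to 131). The intervals of PRE5 (360 to 417 CPM) and PUP2 (339 to 395 CPM) overlap, and those of SCL1 and PRE8 overlap with no other gene of the ring.

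The beta ring was more even, with 3508 covering reads over 7 genes of 597 to 864 coding bases. The highest were PUP3 with 765 reads, 417 CPM (388 to 448), and PRE3 with 709 reads, 387 CPM (359 to 416), with overlapping intervals. PRE3, which carries an intron, PUP1 (493 reads) and PRE2 (441 reads) encode the catalytic subunits of the caspase-like, trypsin-like and chymotrypsin-like sites. Below these lay PRE4 with 404 and PRE7 with 375 reads, and PRE1 was lowest with 321 reads, 175 CPM (156 to 195). All 14 core genes thus lay between 209 and 1264 reads, in a length class with a median of 48.

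The 6 ATPase genes of the base, RPT1 to RPT6, gave 1145 covering reads. They are longer than the core genes, at 1218 to 1404 coding bases, where the class median was 16 reads. RPT4 had 353, RPT6 259, RPT3 204, RPT2 142, RPT5 130 and RPT1 57 reads. RPT4 stood at 192 CPM (173 to 214). RPT6 (141 CPM, 125 to 160) lay above 92.3% of ORFs of its length class and RPT1 (31.1 CPM, 23.5 to 40.3) above 76.4%.

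Of the other base genes, those for the ubiquitin receptors RPN10 and RPN13 had the most covering reads. RPN10 (YHR200W, chromosome VIII, 499079 to 499885, plus strand) had 3378 covering reads, 1842 CPM (1780 to 1905), above 98.0% of ORFs of its class and the highest of the 32. RPN13 had 1188 reads, 648 CPM (612 to 686), above 88.4% of ORFs of its class, a lower share than for RPT6 (92.3%). RPN10 and RPN13 are 2 of the 6 genes without the exact box. RPN1 (YHR027C, 2982 coding bases) and RPN2 (YIL075C, 2838 coding bases), which encode the large scaffold subunits of the base, had 0 and 1 covering reads. For RPN1 a fixed limit of 3 reads for a count of 0 puts molecules that span the ORF at no more than 1.64 CPM. The 95% Poisson interval of RPN1 reaches 2.01 CPM. Of all ORFs in their length class 59.7% had a covering read, and how far capture of long molecules and level each set these values was not tested. On their strands lay 48 and 108 reads in all.

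The lid gave 1940 covering reads over 8 genes. SEM1 (YDR363W-A, chromosome IV, 1202128 to 1202397, plus strand), a small acidic subunit shared with other complexes, led with 816 reads, 445 CPM (415 to 477). RPN5 had 299, RPN7 172, RPN6 169, RPN12 128 and RPN3 22 reads, and these encode scaffold subunits of the lid. RPN11, which encodes the deubiquitinase, had 262 reads, 143 CPM (126 to 161). RPN8, for the partner of Rpn11 in the lid, had 72 reads, 39.3 CPM (30.7 to 49.4). The pair thus differed in reads, although the coding lengths of 921 and 1017 bases fall on either side of a class limit.

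The start of transcription was spread over a range of bases in most of the genes. The median 5′ leader, from start to start codon, was 41 bases over 30 members (quartiles 31 and 66), against 40 over all 2388 ORFs with at least 20 covering reads. SEM1 had the shortest, 16 bases, and RPN8 the longest, 98. The central 90% of starts spanned a median of 47 bases in members and 42 in all ORFs. At least 50% of the reads began at a single base in 5 members, against 24.7% of ORFs. These were PRE4 (78.2% at 53 bases before the start codon), RPN3 (63.6%), RPT6 (57.1%), PRE5 (51.8%) and SCL1 (51.6%, with a further 23.7% at the neighbouring base). The most used start of PUP2 held only 17.0%.

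No ATG lay between the most used start and the start codon in any of the 30 members, against 10.3% of ORFs. Over reads, 86 of 15477 (0.556%) carried an ATG in the leader, against 3.81% over all ORFs. RPT6 and RPN8 had the highest shares, 20 of 259 reads (7.72%) and 6 of 72 (8.33%), with the nearest ATG 41 and 128 bases before the start codon.

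Polyadenylated ends lay at a shorter median distance from the stop codon than over all ORFs, with overlapping quartiles, and were more spread than the starts. The median 3′ distance past the stop codon was 94.5 bases over the 30 members (quartiles 74.75 and 138), against 119 over all ORFs (quartiles 86 and 166). The shortest was 57 bases, in PUP2, and the longest 207 bases, in RPN13. The central 90% of ends spanned a median of 77 bases, against 59 over all ORFs, and was wider than that of starts in 21 of 30 members and in 1411 of 2388 ORFs. Several genes used separate groups of ends. SCL1 ended mainly at 127 bases past the stop codon (598 reads), with a second site at 199 (109 reads). PRE2 ended at 58 bases (207 reads) and at 189 (44 reads), PRE7 at 113 (84 reads) and 46 (78 reads), and PRE4 at 138 (211 reads) and 56 (77 reads). Others had most of their reads at 1 site, with 75.6% of PUP3 reads at 154 bases and 73.0% of RPT3 reads at 87. PRE9 had 72.8% of its reads at 79 and PRE5 71.2% at 158, although the central 90% of PRE5 ends spanned 167 bases. Of the end sites named here, those of SCL1 at 199, PRE2 at 189, PRE4 at 138, PRE9 at 79 and PRE5 at 158 lie before A-rich genome sequence, meaning at least 6 A in the next 10 bases. The part of cDNA priming on genomic A stretches in any of these ends was not tested.

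SEM1 had the widest spread, with 108 end sites and 372 bases for the central 90%. Its most used end, at 75 bases, held 11.0% of the reads, and the sites at 268, 180 and 430 bases held 55, 48 and 43 reads, the one at 180 before A-rich sequence. Its perplexity was 181, where perplexity is the number of equally used isoforms that would give the same diversity. The median over the 27 members with at least 100 covering reads was 39.3, against 36.8 over 1213 such ORFs, and the lowest was 14.7, in PRE4. In bins of 20 bases the members' median was 7.57. TATATA was found on the gene's strand in the 60 bases up to the most used end in 14 of the 30 members, against 36.2% of ORFs, and AATAAA in 5, against 17.1%.

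**Figure D4:**
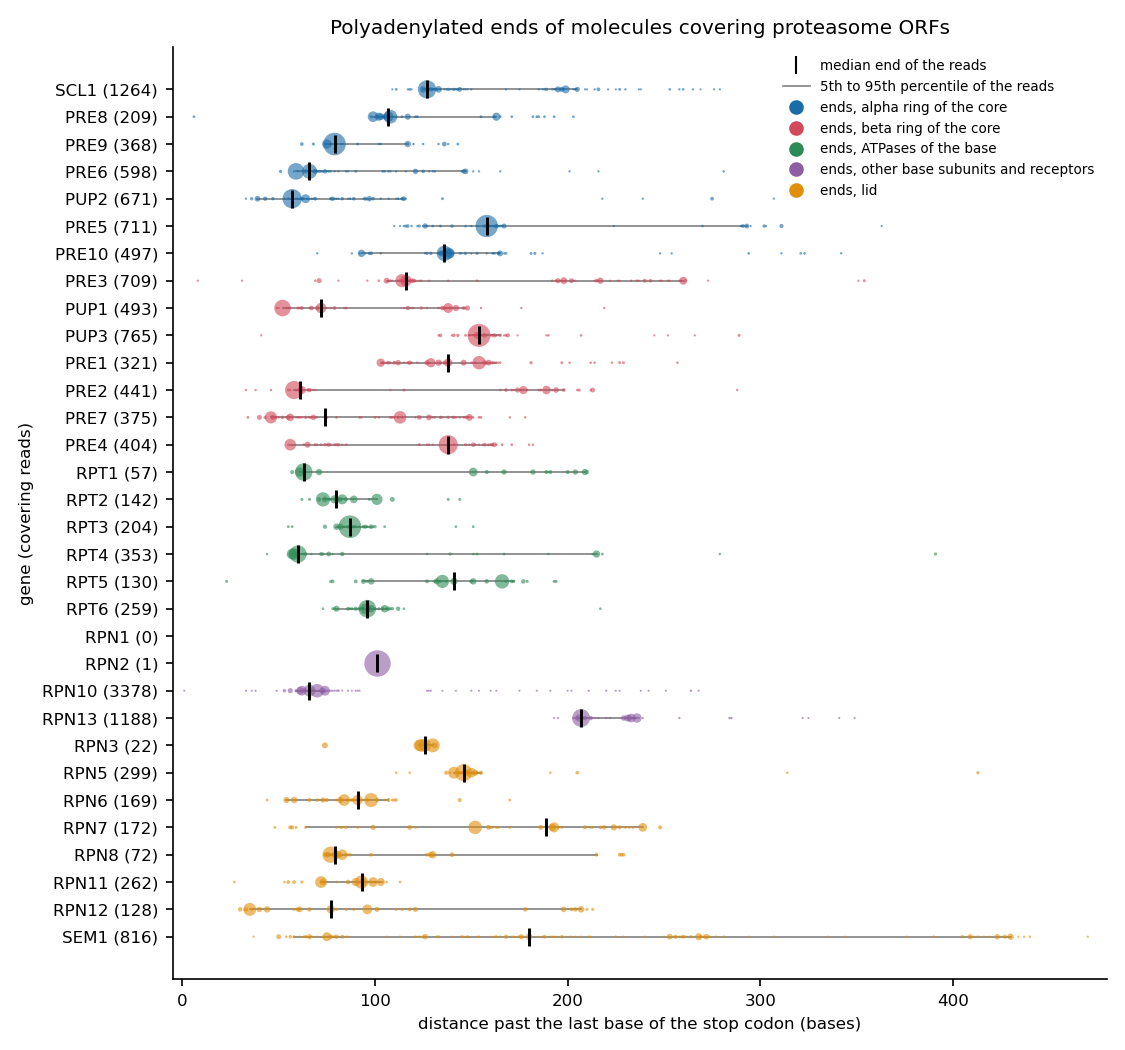
Ends of molecules that cover the ORF (circles, area growing with the share of reads) by distance in bases past the stop codon, with the median (black tick) and the 5th to 95th percentile of reads (grey line). Ends of PUP3 and RPT3 are concentrated at 154 and 87 bases, and the 95th percentile of SEM1 ends lies at 430 bases.

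Some ends ran into the convergent neighbour on the opposite strand. Of the 3378 covering reads of RPN10, 2365 (70.0%) ended inside PPX1, an exopolyphosphatase gene. For RPN13, 494 of 1188 (41.6%) ended inside URA4, a pyrimidine synthesis gene. The shares were 19.8% for RPT4 in HNT3, 11.5% for PRE7 in the retention receptor gene ERD2, 5.56% for RPN8 in GCD1 and 4.43% for SCL1 in the sterol synthesis gene ERG4. In turn, 298 molecules of PPX1, 93 of ERD2 and 65 of HNT3 reached into RPN10, PRE7 and RPT4 from the other strand. No isoform covered a member together with another ORF of its strand (0 isoforms).

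Over the members together, molecules that did not cover the whole ORF were a minority, but not in RPN1, RPN2 and RPN3. Covering shares there were 0%, 0.926% and 46.8%. Of 17204 reads on the members' strand, 171 (0.994%, Wilson interval 0.856 to 1.15) began upstream and ended inside the ORF, against 2.18% over all ORFs. A further 1507 (8.76%, 8.35 to 9.19) began inside and ran past the stop codon, against 11.2%, and 48 (0.279%) lay within the ORF. The late share fell to 3.17% and 1.72% with at least 2 and 5 reads per isoform. Early ends exceeded 5% of the reads in 2 of the 30 members with at least 50 reads on their strand, SEM1 and RPN2, against 18.2% of such ORFs.

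The early ends gathered at a few bases, most of them before A-rich genome sequence. The share before such sequence was 143 of 171 early reads (83.6%), against 29.9% of early reads over all ORFs. Over the members' own covering reads it was 18.7%. SEM1 held 93 of the 171 early reads and 89 of the 143, and PUP3 held 31 and 26. In SEM1, 1 isoform held 82 of the 89, and in PUP3, 1 isoform held all 26. The pooled share thus rests mostly on SEM1 and PUP3, and the comparison does not describe the members at large. The part of cDNA priming on genomic A stretches was not tested here either. Without the ends before A-rich sequence the early share was 0.203%. In SEM1, 87 reads ended at the 252nd base of the ORF, 82 of them on 1 isoform. PUP3 had 26 early reads on 1 isoform at the 227th base. PRE6 had 12 reads on 6 isoforms at the 741st base, 9 of them early ends and 3 on molecules that also began inside the ORF. The ends inside RPN2 belonged mostly to molecules that began inside the ORF as well: 32 reads on 27 isoforms ended at the 2500th base, 5 of them early ends, and 12 on 11 isoforms at the 2476th, 0 of them early ends. The sequence on the gene's strand is shown for 4 of these sites, with 15 bases up to the last base of the molecule in lower case and the next 10 bases in capitals.

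SEM1, 252nd base (chrIV:1202365-1202389, plus): gaattggatagatacAAACGGGAAA
RPN2, 2500th base (chrIX:218191-218215, minus): aaaaagagcatgaggAAAAAGAAAA
PUP3, 227th base (chrV:349110-349134, minus): gaacctatataagttGAAGGAAGAA
PRE6, 741st base (chrXV:256063-256087, plus): cagcaagagcaggacAAAAAGAAAA

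The RPN2 and PRE6 sites were reached by 27 and 6 isoforms, whereas 1 isoform held 82 of the 87 reads in SEM1 and all 26 in PUP3, and there repeated molecules and copies of 1 molecule cannot be told apart.

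Late starts exceeded 20% of the reads in 8 of the 30 members with at least 50 reads, against 40.9% of ORFs. The 8 were RPN2 (50.9%), RPT2 (37.2%), RPN12 (35.6%), RPT1, RPT4, RPN8, RPT6 and RPT3. Below the minimum of 50 reads, RPN1 had 47 of 48, with 31 of these on 1 isoform, and RPN3 had 51.1%. The ATPase genes together had 26.0%, against 8.39% in the alpha ring and 5.97% in the beta ring. The ATPase genes are also longer, at 1218 to 1404 coding bases against 597 to 867 in the rings. No late-start share by length class was computed, so the part of coding length in this difference was not tested. RPN12, of 825 coding bases, was the shortest of the 8. A start inside the ORF with at least 10 reads was found in 8 of the 32 members, against 12.9% of ORFs. The leading one was at the 320th base of RPN12, with 32 reads on 1 isoform, followed by the 2206th base of RPN1 with 31 reads on 1 isoform and the 185th base of PRE10 with 26 reads on 2. PRE9 and RPT3 each had 17 reads on 1 isoform, at the 709th and 778th bases. In PRE2 19 reads on 4 isoforms began at the 172nd base. In PUP2, 20 reads began at the 390th base, 10 bases before an in-frame ATG at codon 134 of 261, and 17 of them ran 812 bases past the stop codon. For the reads on 1 isoform in RPN12, RPN1, PRE9 and RPT3, repeated molecules and copies of 1 molecule cannot be told apart. The same holds for 25 of the 26 reads in PRE10 and 17 of the 20 in PUP2. In RPN13, the 7th base, with 10 reads on 3 isoforms, is the first base of an in-frame ATG at codon 3.

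Divergent transcripts, which start on the other strand within 500 bases upstream of the start codon, reached at least 10 reads at 17 of the 32 genes, against 35.1% of ORFs. With at least 2 and 5 reads per isoform the 17 became 10 and 8, and within 250 bases 7. At 11 of these the reads lay on an annotated ORF, so the pair shares its upstream region. The highest counts were for the ribosomal protein gene RPL11A opposite PRE2 (387 reads), GPN2 opposite RPN8 (172), PET123 opposite PUP1 (144), ALG13 opposite RPT6 (125) and OST1 opposite PRE3 (105). In the others, AIM46 and NBL1 together faced RPN10 (60), YPI1 faced RPN11 (55), GCD1 faced RPT4 (51), MPO1 faced SCL1 (47), PMT1 faced RPN6 (19) and YOL038C-A faced PRE6 (12). The box of 11 members also lies within the 500 bases before another ORF, among them RPL11A, ALG13, OST1, YPI1, GCD1, MPO1, PMT1 and YOL038C-A. NOP14 shares the box of RPN5 in this way, and YTH1 that of RPN7. How often an upstream position of other ORFs lies before a second ORF was not computed, so the 11 has no background.

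Divergent reads that touched no ORF reached 10 at 6 members, against 17.1% of ORFs. Among the 32, PRE9 had the most, 107 reads on 35 isoforms with a median length of 506 bases. Of these, 82 began at a single base 249 bases before the start codon and 157 bases from the most used start of PRE9, and the box lay between both starts, 90 bases from the divergent one. RPN12 had 30 such reads, PRE10 21, RPN2 18, RPT3 18 and PRE1 10, each spread over 9 to 28 isoforms. Their most used divergent starts lay 236 to 308 bases before the start codon. All 6 genes carry the box, as do 26 of all 32 members, between the start of the gene and the divergent start. The same order held at the box genes whose divergent reads lay on an ORF. There the box lay 95 (RPT6) to 360 bases (PRE3) from the most used divergent start. Members' boxes ended 76 to 175 bases before the start codon, nearer to it than any of these most used divergent starts. The order was not counted for other ORFs.

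Antisense reads that overlapped the ORF and touched no ORF of their own strand reached 10 at 5 members, against 20.4% of ORFs. PRE1 had 78 on 69 isoforms, of which 29 began at a base past the end of its 597-base ORF, 752 bases from its start codon. PRE9 had 32, PUP1 25, PRE6 24 and PRE10 19. In PRE9, 25 of the 32 began inside the ORF.

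**Figure D5:**
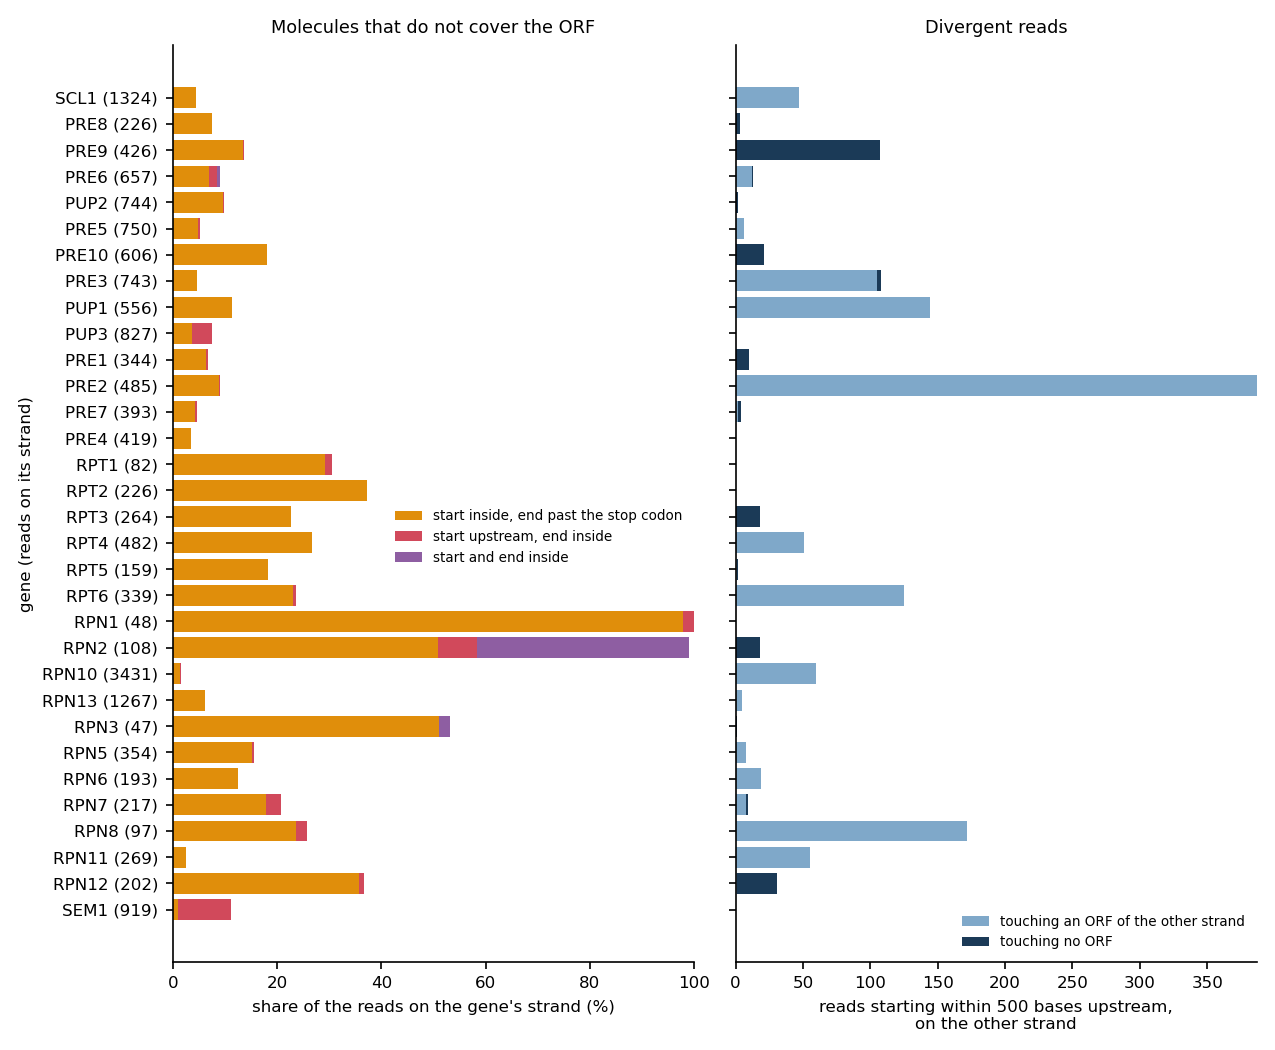
Left, share of the reads on each gene's strand (%) that start inside and end past the stop codon, start upstream and end inside, or lie inside the ORF. Right, divergent reads within 500 bases upstream on the other strand, touching an ORF there (light) or no ORF (dark), with PRE2 at 387 reads beside RPL11A and PRE9 at 107 reads touching no ORF.

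Among 23 other genes of the proteasome system, listed by role, the box was found before 3, against 1.65% of all ORFs. At least 20 covering reads were seen for 15, against 39.8% of all ORFs. RPN9, the remaining lid gene, carries the box 69 bases from its most used start and had 71 covering reads, 38.7 CPM (30.2 to 48.8). It had 442 divergent reads that touched no ORF, more than any of the 32. The other 2 with the box were CDC48, a segregase that extracts ubiquitinated proteins (69 reads, box 71 bases from the start), and ECM29, a proteasome-associated scaffold gene with 0 covering reads. RPN4 itself had 12 covering reads, 6.54 CPM (3.38 to 11.4), and no box. Those past 100 reads were the assembly chaperone gene UMP1 (469), the shuttle factor gene DSK2 (374), NAS6 (170), UFD1 (154), PBA1 (141), POC4 (117) and ADD66 (101). All 7 lack the exact box, as do most ORFs, and near forms of it were not listed for these genes.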

How the data were processed

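TIF-Seq was applied to polyadenylated, capped RNA of 4 libraries of 1 strain. The deposited table holds whole-number read counts per isoform (chromosome, strand, start and end), pooled by the authors over the 4 libraries into 1 column. Depth per library is thus not known, and the total was 1833796 reads on 425462 isoforms, 306967 of them with 1 read. The build was R64 and the tools were Novoalign 2.07.10 and CASAVA, per the submitters' processing notes. Their settings, and whether PCR copies were collapsed, are not stated in any source used.

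Isoforms were placed with the RefSeq R64 annotation by the ORFs of their strand, in the order covering, early end (start up to 1000 bases upstream), late start and inside. The members and the lists of other proteasome genes were chosen with earlier results of these data known. All 32 members are named, and the other 23 genes are named past 100 covering reads, or with the box, as well as RPN4. CPM carries exact Poisson intervals and shares Wilson intervals (95%), covering counting error only. A count of 0 was given a fixed limit of 3 reads, apart from the Poisson interval. Thresholds were 20 covering reads for leaders and ends, 50 reads on the strand for shares, 100 for perplexity and 10 for divergent, antisense and inner starts. With 1 group and 1 column, no test was run. Sequences were read from the R64 genome. Python 3.11.15, numpy 2.4.6, pandas 2.3.3, scipy 1.17.1 and matplotlib 3.10.9 were used, and the scripts were tested on simulated data. One result on a neighbouring gene is not reported here.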

Additional observations from a re-analysis of the deposited data

How the results depend on the processing

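Of 34 alternatives over 9 results, 24 moved their value within the interval or within 1.5 times the count, and 10 moved it further. Reversal of a comparison was not assessed. With at least 2 and 5 reads per isoform, the members' share of all reads was 0.727% and 0.598% (0.844% as reported), the late-start share 3.17% and 1.72% (8.76%) and the members with at least 10 divergent reads 10 and 8 (17). Counting each distinct isoform once, an alternative chosen after seeing the data, gave a late-start share of 24.4%. A 250-base window left 7 members with divergent reads. Without ends before A-rich genome the early share was 0.203% (0.994%). In bins of 20 bases the median perplexity was 7.57 (39.3). The median 5′ distance stayed between 39.5 and 43 bases, the median 3′ distance between 93 and 120.25, the members with at least 20 covering reads between 26 and 30, and the members with the box between 26 and 31. The cause was not tested where no value shows it, although minimums of reads per isoform remove single-read isoforms by construction. No paired analysis was possible because the 4 libraries share 1 pooled count column, so leaving out a culture or a preparation was not run. For RPN1 and RPN2 the values are limited by counts of 0 and 1, in a length class where 59.7% of ORFs had a covering read.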

Other observations

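Very short leaders were frequent in a few of the proteasome genes, by a limit of 10 bases that was chosen after the values were seen. Of the members' covering reads, 1189 (7.68%) began within 10 bases of the start codon, against 3.74% over all ORFs. The share was above 3.74% in 11 of the 30 genes and below it in 19, with a median of 2.72%. RPN13, the ubiquitin receptor gene, had 247 such reads (20.8%), and its most used start lay 4 bases before the start codon (221 reads), while 164, 155 and 126 reads began 49, 41 and 67 bases before it. RPN10 had 441 (13.1%), RPN12 21 (16.4%), PRE6 75 (12.5%) and SEM1 92 (11.3%). PUP3, RPT1, RPT2, RPT5, RPN3 and RPN7 had 0. RPN10 thus holds 441 of the 1189 reads.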
